A study of Bos taurus with 18 samples.

Results

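GAS6, its fellow ligand PROS1 (protein S) and the 3 receptors they share, TYRO3, AXL and MERTK, make up 5 of the 16989 genes counted in these libraries. The 5 rows were taken by gene symbol, and all 5 symbols were present. GAS6 was selected on its own measured values, because it was among the genes lowest where glycosaminoglycan per DNA (GAG/DNA, the matrix laid down in later pellet culture) was high. The other 4 followed as its partners. The level of GAS6 in the clones and in Het (the uncloned culture described next) is therefore a description with no test, tests are given only of its relation to other genes, and GAG/DNA itself was not analysed here. Those tests use the same values by which GAS6 was selected, so they are not independent of that choice.

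The libraries came from bovine mesenchymal stem cells (MSCs) of the bone marrow of juvenile cattle, grown on tissue culture plastic in DMEM with serum and antibiotics, and were made from poly-adenylated RNA at passage 1. There were 17 clonal populations, named A to Q and each grown from a single cell, and 1 heterogeneous population (Het) that was not cloned. The labels name no chondrogenic factor and no genetic change for any of them. Each clone was sequenced once and the study used cells of 1 donor for this experiment, so every spread given here is the spread between clones and every p-value is measured against it.

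TYRO3, AXL and MERTK are receptor tyrosine kinases known together as the TAM family. Both ligands are secreted proteins that work as bridges. GAS6 and protein S carry a Gla domain, which is carboxylated in a vitamin K-dependent step and then binds phosphatidylserine on dying cells, and their other end engages the receptor, so that a TAM-bearing cell can recognise and engulf the dying one. GAS6 binds all of the TAM receptors and binds AXL most tightly, whereas protein S acts through TYRO3 and MERTK. GAS6 was named as a growth-arrest-specific gene of fibroblasts, AXL is abundant in mesenchymal cells and fibroblasts, and MERTK is best known from macrophages and other phagocytes.

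Reads on genes numbered between 11484812 and 18458157 per clone, with a median of 14193790, and 16092501 in Het. Levels are given as CPM, which divides each count by the gene total of its library, and on this scale 3 reads, the limit that a count of 0 allows, came to between 0.163 and 0.261 CPM. These limits and the 95% Poisson intervals given below cover counting error only. Of 12 stromal markers, COL1A1 ranged from 15245 to 92686 CPM, THY1 from 225 to 686 CPM and PDGFRB from 179.7 to 611 CPM in the clones, whereas LEPR had at most 2 reads and VCAM1 a median of 0.0664 CPM. Of 10 endothelial markers, CDH5, ESAM and CLDN5 had 0 reads in all 18 libraries, while ERG was at 12.4 to 82.7 CPM and VWF at 0.784 to 6.75 CPM in the clones. AKT1, a kinase gene of nearly every cell type, also had 0 reads in all 18 libraries, so that a gene listed at 0 here need not have been silent. No 2 libraries were alike within counting error, since the closest of the 153 pairs, clones C and O, still differed by a chi-square of 4.96 per gene.

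GAS6 was present in every library and its level was spread over a 21.3-fold range between clones. It was lowest in clone I at 23.6 CPM (326 reads), had a median of 75.5 CPM, and was highest in clone Q at 503 CPM. Clone P, at 492 CPM, and clone N, at 290.2 CPM, followed, and then clone J at 182 CPM and Het at 178 CPM. The remaining 13 clones all lay at or below 94.7 CPM, so that the high levels belonged to a few clones while the bulk of them formed a gentle slope.

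**Figure D1:**
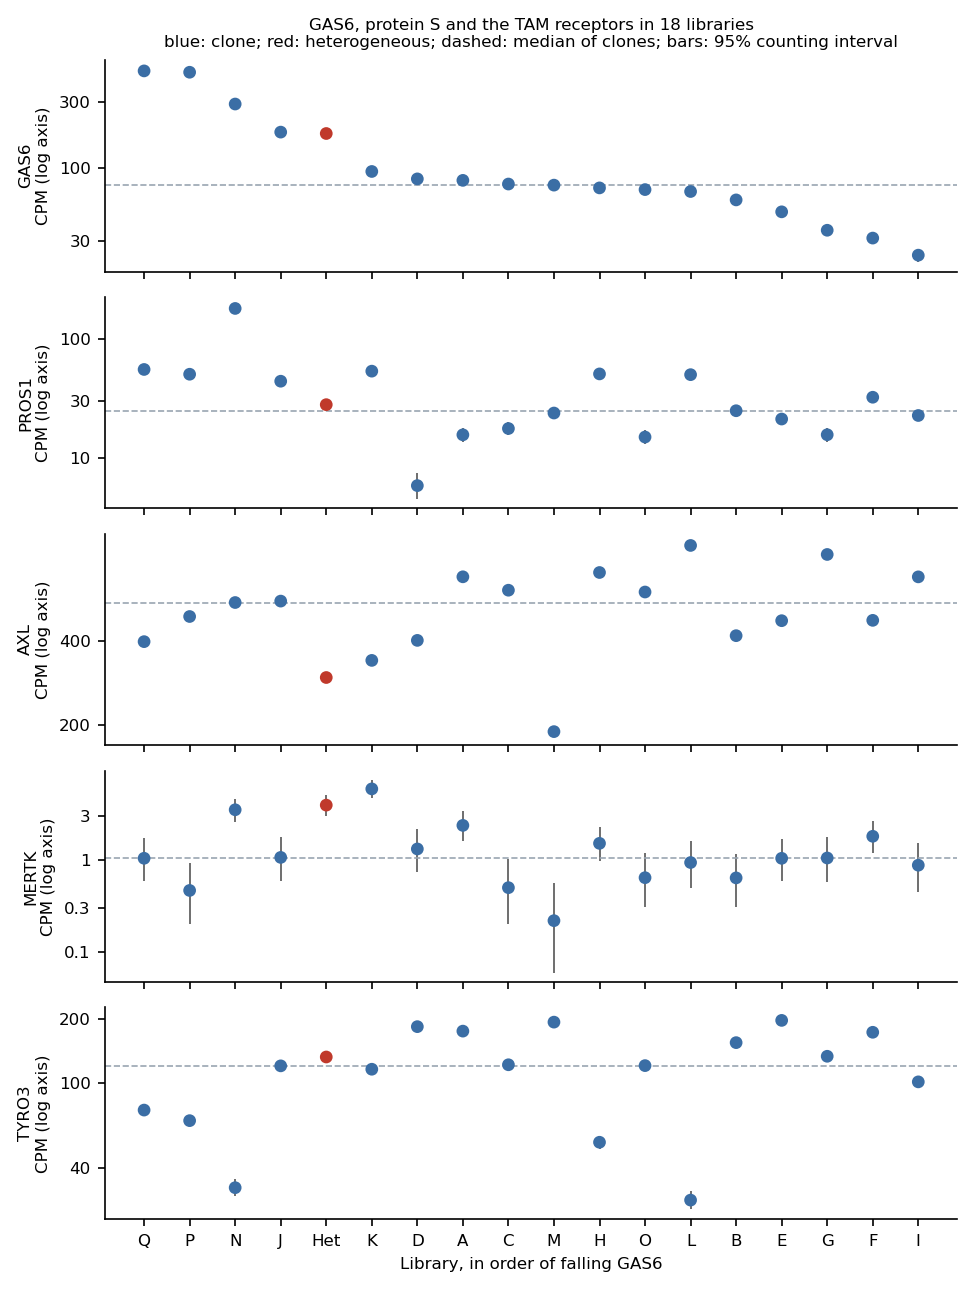
CPM (log axis) of GAS6, PROS1, AXL, MERTK and TYRO3 in the 18 libraries, ordered by falling GAS6; blue points are clones, the red point is Het, dashed lines are the median of the 17 clones and bars are 95% Poisson intervals of the count. The clones with the highest GAS6 (Q, P and N) hold low TYRO3, PROS1 peaks in clone N at 180.1 CPM, and AXL is lowest in clone M at 189.7 CPM.

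PROS1, the second ligand, varied as widely, by 30.9-fold. It ran from 5.83 CPM in clone D (67 reads) through a median of 24.9 CPM to 180.1 CPM in clone N. The next clones, Q at 55.3 CPM, K at 53.5 CPM and H at 50.7 CPM, stood far below clone N, so that 1 clone set the top of the range and 1 clone, D, set the bottom. Het, at 28.0 CPM, was in the middle of the order. Reads of GAS6 per read of PROS1 went from 0.971 in clone F through a median of 2.38 to 14.4 in clone D, and were 6.36 in Het. Gene lengths were not used, so these ratios compare libraries and do not say which ligand had more transcripts.

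AXL was the most evenly expressed of the 5 genes. It was lowest in clone M at 189.7 CPM, had a median of 551 CPM and was highest in clone L at 882 CPM, followed by clone G at 819 CPM and clone H at 705 CPM. Het, at 297 CPM, was lower than 16 of the 17 clones. The range between clones was 4.65-fold and rested on between 3502 and 12334 reads per library, so counting error was small beside it.

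TYRO3 was spread over 6.94-fold. Clones L at 28.4 CPM, N at 32.5 CPM and H at 53.0 CPM were lowest, the median was 121 CPM, and clones E at 197 CPM, M at 193 CPM and D at 184 CPM were highest. Het had 133 CPM and was eighth in the order. Reads of AXL per read of TYRO3 consequently ranged from 0.981 in clone M through a median of 4.96 to 31.1 in clone L, with 2.23 in Het, and exceeded 1 in 16 of the 17 clones. By library totals, clone L thus combined the highest AXL with the lowest TYRO3, and clone M the lowest AXL with the second highest TYRO3.

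MERTK had few reads in every library, and whether the annotation used for counting covers its transcript in full was not tested. It had between 4 and 81 reads in the clones, that is 0.217 CPM in clone M, a median of 1.03 CPM and 5.88 CPM in clone K. Clone N had 3.49 CPM, and Het, with 63 reads or 3.91 CPM, was second of the 18 libraries. At the lowest count, counting error alone gives an SD of 0.72 on the log2 scale, against an SD of 0.91 between the clones, and the SD between clones fell to 0.62 with a pseudocount of 1 CPM in place of 0.25 CPM. None of the 17 steps between neighbours in the order of MERTK had intervals that did not overlap, so neighbours are not separated at this depth. Libraries further apart could be: the interval of clone N (2.57 to 4.62 CPM) lay above that of clone H (0.963 to 2.24 CPM). Steps between neighbours without overlap numbered 8 of 17 for GAS6, 3 for PROS1, 9 for AXL and 6 for TYRO3. For GAS6, clones Q and P could not be separated by counting error, nor could clone J and Het, whereas P and N, N and J, and Het and K could.

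On log2(CPM + 0.25), the SD between clones was 1.26 for GAS6, 1.10 for PROS1, 0.91 for MERTK, 0.86 for TYRO3 and 0.53 for AXL. Over the 11244 genes that passed the filter on low counts the median SD was 0.34. GAS6 was more variable than 96.8% of those genes, PROS1 than 94.8%, MERTK than 91.6%, TYRO3 than 90.3% and AXL than 75.5%. Leaving out each clone in turn kept the SD of GAS6 between 1.12 and 1.302, and that of PROS1 between 0.90 and 1.13. AXL fell to 0.39 without clone M.

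The heterogeneous population was compared with the 17 clones to ask where an uncloned culture lies relative to its clonal relatives. All 5 genes lay inside the range of the clones. Across all genes, 149 of 11878 (1.25%) passed an adjusted p of 0.05 by the quasi-likelihood test of edgeR, 148 higher in Het and 1 lower, and of the 4 members other than GAS6 0 did, with 0 at an unadjusted p under 0.05. Neither limma-voom nor DESeq2 called any of them. With a single Het library, the test assumes that it varies as the clones do. The filter on low counts let a gene pass through its reads in Het alone. Genes nearly absent from the clones thus entered the test, where they could only be higher in Het.

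MERTK had a log2 difference of 1.52 in Het (SE 0.93, unadjusted p = 0.118, adjusted p = 0.699 by edgeR), and AXL had -0.78 (SE 0.48, unadjusted p = 0.119, adjusted p = 0.700 by edgeR). PROS1 had -0.38 (SE 1.07, adjusted p = 0.941 by edgeR) and TYRO3 0.17 (SE 0.82, adjusted p = 0.968 by edgeR). Each of these differences was within 2 SE of 0. The fitted value of GAS6, given with no test, was 0.51. By limma-voom, MERTK had 1.95 (SE 0.69, unadjusted p = 0.011, adjusted p = 0.293), also short of the threshold, PROS1 had -0.016, TYRO3 0.41 and GAS6 1.095, so that the order of these sizes depended on the tool.

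**Figure D2:**
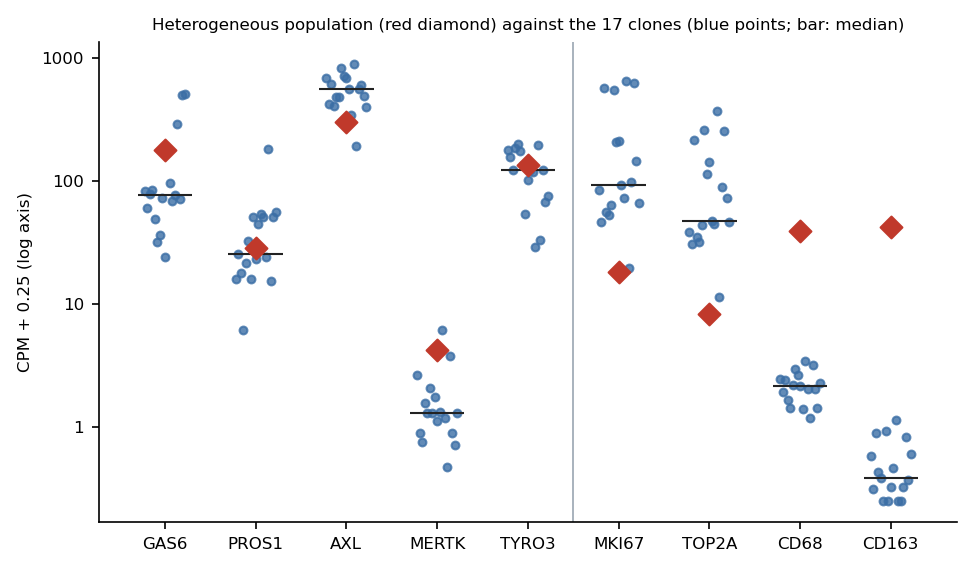
CPM + 0.25 (log axis) of the 5 members, of MKI67 and TOP2A (proliferation) and of CD68 and CD163 (macrophage) in the 17 clones (blue points, with a bar at the median) and in Het (red diamond). For the 5 members Het lies inside the clones, whereas CD163 is at 41.4 CPM in Het and at most 0.871 CPM in any clone.

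Macrophage genes moved with the heterogeneous library. Several, CD163 and MSR1 among them, had too few reads in the clones to be tested there and passed the filter through Het. The count of markers higher in Het is therefore not independent of the filter. Of 20 macrophage markers, 16 were tested and 12 were higher in Het, beside 1.25% of all genes called. The median log2 difference of the 16 was 5.04, against -0.03 over all genes tested. Among the 12, MRC1, PTPRC and VSIG4 were not called by DESeq2. CD163, a scavenger receptor, had 667 reads in Het against 0 to 12 in the clones (log2 difference 7.44, SE 0.72), MSR1 had 317 against 0 to 11 (6.91, SE 0.63), and CD68 had 619 against 16 to 44 (4.43, SE 0.29). FCER1G, a signalling adaptor of phagocyte receptors, was higher by 3.42 (SE 0.34). The 4 adjusted p-values, by edgeR, were between 6.17e-08 and 6.85e-06. Summed over the list, Het had 319 CPM and the clones between 14.95 CPM (clone M) and 110 CPM (clone N), while MARCO, ITGAM and CYBB were at 0 throughout. The part of such cells in the MERTK reads of Het was not tested. In bulk libraries, more cells of a type and more RNA per cell cannot be told apart.

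Some partners and rivals of the TAM system were also called higher in Het, where 1.25% of all genes were called. VAV1 had 48 reads in Het and at most 2 in any clone, and C1QA 64 against at most 3, so both passed the filter through Het. VAV1, an exchange factor of blood cells that lies downstream of MERTK, was higher by 6.61 (SE 0.74) and was the only one called of 27 signalling partners tested. Of 13 other phosphatidylserine bridges and receptors tested, C1QA (6.84, SE 0.78), STAB1 (3.24, SE 0.40) and CD36 (3.86, SE 0.85) were higher, with adjusted p between 1.94e-05 and 0.021 by edgeR. By DESeq2, STAB1 was called and VAV1, C1QA and CD36 were not (adjusted p between 0.185 and 0.197).

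None of the other lists tied to the TAM system had a gene called in Het. Proliferation genes are given here because their values stood beside those of AXL: all 18 were lower in Het, with a median log2 difference of -2.91, but 0 passed the adjusted threshold by edgeR, limma-voom or DESeq2, with 3 at an unadjusted p under 0.05 by edgeR. Their summed level was 131 CPM in Het, below the lowest clone, M, at 155 CPM, and the highest clone, O, at 3035 CPM. Clone M and Het were also the 2 libraries with the lowest AXL. Of the TAM ligands PROS1, TUB, TULP1 and LGALS3, of 6 vitamin K cycle genes and of the 2 sheddases, 0 were called by edgeR, limma-voom or DESeq2. The 2 with an unadjusted p under 0.05 by edgeR were CALU, an inhibitor of the vitamin K cycle, at -0.84 (SE 0.28, adjusted p = 0.314 by edgeR) and ADAM17, a sheddase of TAM receptors, at 0.48 (SE 0.18, adjusted p = 0.489 by edgeR).

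Each clone was then compared with the other 16, to ask whether any clone left the spread of the rest in PROS1, AXL, MERTK or TYRO3. Over the 17 fits, 92 of 199699 tests (0.0461%) passed the threshold, 88 of them in clone N and 4 in clone M, and 0 of 68 tests of these 4 genes did. An unadjusted p under 0.05 was reached in 6 of the 68, given without the share of all tests, which was not computed. The smallest belonged to PROS1 in clone N (log2 difference 2.39, SE 0.60, adjusted p = 0.071 by edgeR), followed by AXL in clone M (-1.40, SE 0.40, adjusted p = 0.692 by edgeR) and MERTK in clone K (2.305, SE 0.70, adjusted p of nearly 1). TYRO3 was at -2.41 (SE 0.90) in clone L and -2.15 (SE 0.91) in clone N, and PROS1 was at -2.77 (SE 1.24) in clone D.

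The 5 genes form 10 pairs, and their Pearson correlations across the 17 clones were computed on log2(CPM + 0.25) with two-sided permutation tests. By Pearson's r, 2 pairs had an unadjusted p under 0.05. PROS1 and TYRO3, a ligand and a receptor it activates, ran in opposite directions (r = -0.738, permutation p = 0.0005, n = 17; Spearman rho = -0.699, permutation p = 0.0024). The relation held without clones D and N, the 2 farthest from the median of PROS1 (r = -0.633, permutation p = 0.0083, n = 15), and r stayed between -0.785 and -0.630 with each clone left out. GAS6 and PROS1 rose together (r = 0.535, permutation p = 0.028, n = 17), but the rank correlation did not pass (rho = 0.441, permutation p = 0.079; 0.542, permutation p = 0.026, with CPM by TMM effective library size), nor did r without clones P and Q (r = 0.505, permutation p = 0.057, n = 15) or without clone N (r = 0.433, permutation p = 0.094, n = 16).

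AXL and TYRO3 had r = -0.438 (permutation p = 0.080, n = 17) and GAS6 and TYRO3 had r = -0.430 (permutation p = 0.083, n = 17), neither past 0.05. GAS6 and AXL, the tightest ligand and receptor in the family, had r = -0.214 (permutation p = 0.40, n = 17). The other 5 pairs had r between -0.185 and 0.364. These values are not adjusted over the pairs, and the fits across all genes below give adjusted ones.

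**Figure D3:**
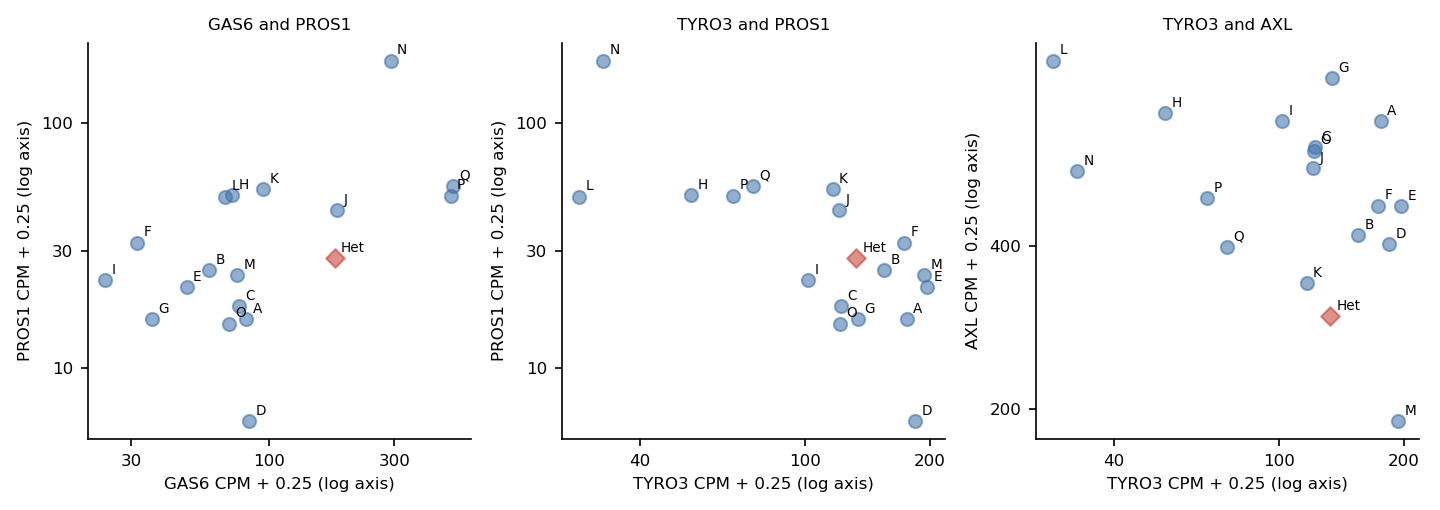
PROS1 against GAS6, PROS1 against TYRO3 and AXL against TYRO3, in CPM + 0.25 on log axes, 1 point per library with its letter; the red diamond is Het. PROS1 falls as TYRO3 rises (r = -0.738 over the 17 clones), and clone N is the highest in PROS1 in both of its panels.

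The scaling of the libraries moved several of these values. With CPM by TMM effective library size, AXL was highest in clone G (767 CPM), followed by clones L (759 CPM) and A (758 CPM). On that scale the SD between clones was 0.97 for TYRO3, 0.90 for MERTK and 0.47 for AXL. The level of TYRO3 followed the normalization factor of the library (r = -0.84 across the 17 clones with the log2 TMM factor, given as a description, against 0.56 for AXL and 0.22 for GAS6), and the libraries rich in TYRO3 were rich in type I collagen, of which COL1A1 alone took up to 9.27% of the reads of a clone. With CPM by effective library size the correlation of PROS1 with TYRO3 was -0.640 (permutation p = 0.0053, n = 17), that of GAS6 with AXL was -0.339 (permutation p = 0.181, n = 17) with a rho of -0.500 (permutation p = 0.044, against -0.350 and 0.168 by library totals), and that of PROS1 with AXL turned from 0.023 to -0.126 (permutation p = 0.618, n = 17).

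The slope of every gene on log2 GAS6 was fitted by edgeR across the 17 clones, to find which partners followed it. GAS6 entered as CPM by library totals, whereas the fitted genes were scaled by TMM. The same holds for the slopes on AXL and TYRO3 below. Of 11243 genes, 1707 (15.2%) passed the threshold, 1010 upward and 697 downward, or 1070 and 453 with library totals in place of TMM. The other 4 members had the following slopes, as log2 change per log2 unit of GAS6. PROS1 rose by 0.51 (SE 0.15, adjusted p = 0.032), TYRO3 had -0.32 (SE 0.16, adjusted p = 0.190), AXL had -0.11 (SE 0.08, adjusted p = 0.376) and MERTK had 0.09 (SE 0.24, adjusted p = 0.826). One of 4 members was thus called, where 15.2% of all genes were, so the count of members does not stand out.

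The number of calls depended on the clones with the most GAS6. Without clone Q 822 genes were called, and 1008 without clone P. Without both, 169 of 11280 were called, and without clones N, P and Q 0 of 11225 passed by edgeR, with 1122 at an unadjusted p under 0.05. The slope of PROS1 was 0.29 (adjusted p = 0.187) without clone N and 0.28 (adjusted p = 0.809) without N, P and Q. Without clone E, G, I or Q it also missed the threshold, with adjusted p between 0.051 and 0.065, but kept its size, at 0.47 to 0.57. All upward and downward calls on GAS6 below carry this limit. They also rest on the values by which GAS6 was selected, so genes related to GAG/DNA are not an independent test.

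Of the vitamin K-dependent proteins, MGP, the matrix Gla protein that holds back calcification of cartilage and vessels, rose most steeply with GAS6. MGP was at 0.298 CPM in clone G, 5.76 CPM at the median and 651 CPM in clone Q, with clones N (409.7 CPM) and P (389.8 CPM) next and 27.5 CPM in Het. The 3 clones with the most GAS6 were also the 3 with the most MGP, and the next, clone K, had 46.6 CPM of MGP. Its slope was 2.04 (SE 0.24, adjusted p = 4.35e-05), 1.96 without P and Q (adjusted p = 0.0073) and 1.16 without N, P and Q (adjusted p = 0.468). Of the other Gla proteins, F7, F9, F10, PROZ, PRRG1 and PRRG4 had 0 reads in all libraries, and PRRG2, the one other tested, had a slope of 0.15 (SE 0.08, adjusted p = 0.221).

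Of 6 genes of the vitamin K cycle, which makes the Gla domain, 1 was called on GAS6, beside 15.2% of all genes. It was CALU, which fell by 0.13 (SE 0.04, adjusted p = 0.022; 0.284 without P and Q). GGCX, the gamma-carboxylase itself, ranged from 76.2 to 131.6 CPM with a slope of 0.07 (SE 0.05, adjusted p = 0.364), and VKORC1, which regenerates vitamin K, from 66.4 to 142 CPM with a slope of 0.14 (SE 0.06, unadjusted p = 0.037, adjusted p = 0.136). C4BPA and C4BPB, whose protein binds protein S in plasma, had 0 reads in every library.

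Of the 4 TAM ligands other than GAS6 that were tested, PROS1 and TUB rose, beside 15.2% of all genes called. TUB, a tubby protein that can act as a bridging ligand of MERTK, ranged from 9.37 CPM in clone M to 20.4 CPM in clone Q with a slope of 0.18 (SE 0.04, adjusted p = 0.0060), lost without clone Q. LGALS3 (galectin-3), another proposed MERTK ligand, ranged from 207 to 592 CPM.

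Of 26 signalling partners tested, 4 rose with GAS6 and 0 fell, that is 4 of 26 beside 15.2% of all genes. They were PIK3R2 (0.35, SE 0.03, adjusted p = 7.48e-06) and PIK3R1 (0.30, SE 0.06, adjusted p = 0.0028), the regulatory subunits through which PI3-kinase docks on active receptors, TENC1 (0.33, SE 0.05, adjusted p = 0.00031), a tensin-like protein known to bind AXL, and PLCG1 (0.22, SE 0.05, adjusted p = 0.0094). The changes were small: PIK3R2 ran from 29.8 CPM in clone F to 108.5 CPM in clone P. PIK3R2 and TENC1 remained past the threshold without P and Q. The sheddases ADAM10 (52.3 to 105.9 CPM) and ADAM17 (83.8 to 122 CPM), which release the soluble receptors, had slopes of -0.10 (adjusted p = 0.058) and -0.03 (adjusted p = 0.643).

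Other proteins that recognise phosphatidylserine gave 3 rises and 1 fall among 11 tested, beside 15.2% of all genes called. EDIL3, a secreted bridge from phosphatidylserine to integrins, rose by 0.70 (SE 0.09, adjusted p = 0.00010) and ran from 51.8 CPM in clone E to 918 CPM in clone Q, and it kept its call without P and Q (adjusted p = 0.014). SCARF1 rose by 0.44 (SE 0.10, adjusted p = 0.0058) and STAB1 by 0.29 (SE 0.09, adjusted p = 0.038). ITGB3, the integrin subunit that pairs with ITGAV to receive EDIL3, fell by 0.54 (SE 0.09, adjusted p = 0.0012). SCARF1, STAB1 and ITGB3 were not called without P and Q.

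Cartilage genes rose with GAS6 in 7 of 12 tested and fell in 0, beside 15.2% of all genes called. Their median slope was 0.40 against -0.001 over all genes. PRG4 (lubricin, the boundary lubricant of joints) had a slope of 2.86 (SE 0.32, adjusted p = 2.71e-05), CILP of 1.36 (SE 0.16, adjusted p = 4.35e-05), HAPLN1, the link protein of aggrecan aggregates, of 0.97 (SE 0.15, adjusted p = 0.00049) and COMP of 1.23 (SE 0.25, adjusted p = 0.0034). The others were ACAN, COL11A2 and CHAD, named after their values were seen. ACAN (1.05, adjusted p = 0.044 by edgeR) was called in only 4 of the 17 fits that left out a clone. It was not called with DESeq2 size factors or with Het included. The paper reports a negative but only weak association of ACAN with chondrogenic capacity. GAS6 was itself chosen as low where GAG/DNA was high, so the slope of ACAN on GAS6 is not independent of that choice. PRG4 had a median of 1.13 CPM and was at 602 CPM in clone N, 162 CPM in clone Q and 63.8 CPM in clone P, and the next clone, J, had 4.65 CPM. Without P and Q the calls were 3 of 12 (PRG4, HAPLN1 and COMP), and without N, P and Q they were 0 of 12, with PRG4 at 0.94 (adjusted p = 0.254).

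**Figure D4:**
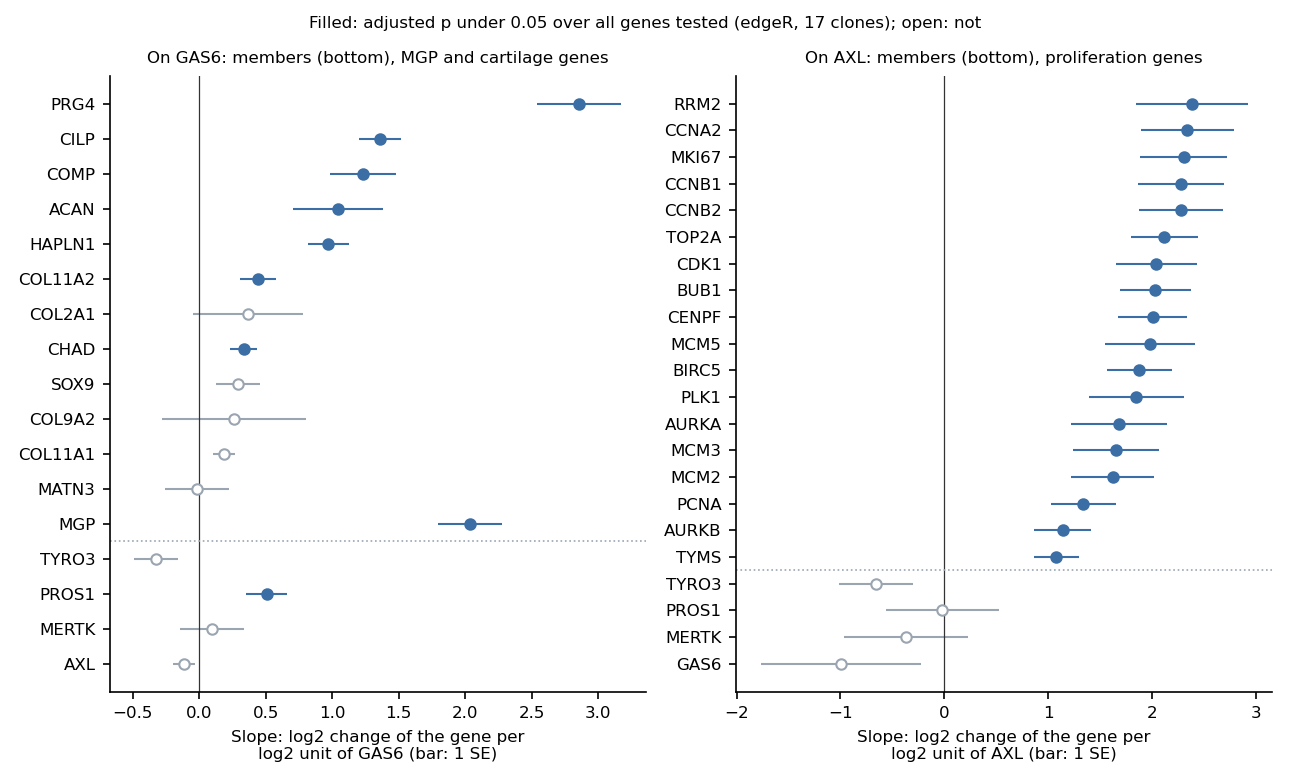
Slopes with 1 SE from the fits across all genes in the 17 clones, per log2 unit of GAS6 (left) and of AXL (right); filled points passed an adjusted p of 0.05, open ones did not. PROS1 is the one member past the threshold on GAS6, and all 18 proliferation genes are past it on AXL, at slopes between 1.07 and 2.38.

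The same fit on AXL gave another picture. Of 11511 genes, 1191 (10.3%) passed, 710 upward and 481 downward, or 1536 and 227 with library totals, which moved the median slope over all genes to 0.11. Of the 4 other members 0 passed by edgeR, limma-voom or DESeq2, and 0 had an unadjusted p under 0.05 by edgeR: GAS6 had a slope of -0.995 (SE 0.77, adjusted p = 0.407), TYRO3 of -0.66 (SE 0.36, adjusted p = 0.224), MERTK of -0.37 (SE 0.60, adjusted p = 0.715) and PROS1 of -0.02 (SE 0.54, adjusted p = 0.985).

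AXL rose and fell with the genes of cell division. All 18 of 18 proliferation genes rose with AXL, with a median slope of 1.99 against -0.01 over all genes. TOP2A, a topoisomerase of dividing cells, had a slope of 2.12 (SE 0.33, adjusted p = 0.0019), CENPF, a kinetochore protein, of 2.001 (SE 0.33, adjusted p = 0.0029), BIRC5 (survivin) of 1.87 (SE 0.31, adjusted p = 0.0031) and BUB1, a spindle checkpoint kinase, of 2.03 (SE 0.34, adjusted p = 0.0031). TOP2A ran from 11.1 CPM in clone M to 365 CPM in clone L, by library totals also the lowest and highest clones for AXL. Clones G and O, at 257 and 254 CPM, came next. Clone A, close to clone L in AXL by effective library size, had 38.3 CPM of TOP2A. The calls were 12 of 18 without clone L, 14 of 18 without clone G and 12 of 18 with DESeq2 size factors, with all 18 slopes above 0 in each of these. The genes called in all fell to 290 without clone L, 443 without G and 711 without K, and came to 1941 without M.

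By contrast, 0 of the 18 proliferation genes were called on GAS6 by edgeR, limma-voom or DESeq2, with 0 at an unadjusted p under 0.05 by edgeR and slopes between -0.50 and -0.09. The slopes on GAS6 and on AXL come from the same libraries, and the difference between them was not tested.

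Among the other lists, AXL went with few genes, beside the 10.3% of all genes called on it. The 3 of 26 signalling partners called do not stand out from that share. Of 26 signalling partners, VAV2 (0.25, SE 0.07, adjusted p = 0.034) and RAC1 (0.27, SE 0.08, adjusted p = 0.049), which act in engulfment, rose and PIK3CA, the catalytic subunit of PI3-kinase, fell by 0.43 (SE 0.12, adjusted p = 0.033). Of the stromal markers CD44, the hyaluronan receptor, rose by 0.63 (SE 0.12, adjusted p = 0.0063) and COL1A2 fell by 0.74 (SE 0.22, adjusted p = 0.039). One cartilage gene of 13, COL11A1, fell by 0.72 (SE 0.18, adjusted p = 0.023). ITGAV fell by 0.32 (SE 0.10, adjusted p = 0.0498), 1 of 11 phosphatidylserine bridges and receptors. Of these 7 genes only CD44 kept its call without clone L and with DESeq2 size factors. Of 5 other ligands, 6 vitamin K cycle genes, 3 Gla proteins and 2 sheddases tested, 0 were called by edgeR, and VKORC1 at -0.39 (SE 0.15, adjusted p = 0.0897) was the only one with an unadjusted p under 0.05. One of 6 macrophage markers tested in the clones, LAPTM5, rose by 1.68 (SE 0.43, adjusted p = 0.023), and lost its call without clone L.

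A slope on TYRO3 was added after the data were seen, because of its relation with PROS1. Of 11346 genes, 1637 (14.4%) passed, 869 upward and 768 downward, whereas library totals gave 372 and 2367 with a median slope of -0.12. PROS1 fell by 0.85 per log2 unit of TYRO3 (SE 0.19, adjusted p = 0.0075), the one member called. It lost its call without clone N (-0.55, adjusted p = 0.143) and kept it with each of the 16 other clones left out. GAS6 had -0.87 (SE 0.36, adjusted p = 0.118), AXL -0.13 (SE 0.12, adjusted p = 0.510) and MERTK -0.11 (SE 0.31, adjusted p = 0.848). Since PROS1 and TYRO3 were picked for their correlation, this slope is not independent of it.

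Both chains of type I collagen rose with TYRO3, 4 of 11 stromal markers and 3 of 12 cartilage genes fell, and the rest of these lists was not called. Over all genes 14.4% were called. COL1A1 rose by 0.75 (SE 0.11, adjusted p = 0.00080) and COL1A2 by 0.57 (SE 0.12, adjusted p = 0.0048), while the 4 that fell were CXCL12, the niche chemokine of marrow stroma (-1.13, SE 0.18, adjusted p = 0.0010), PDGFRA (-0.90, SE 0.16, adjusted p = 0.0023), VCAM1 and THY1. The slope of VCAM1 rested on 0 to 47 reads per clone, with a median of 1. The other 5 stromal markers, NT5E, CD44, ENG, ITGB1 and PDGFRB, had slopes between -0.18 and 0.10. COL1A1 was at 15245 CPM in clone N and 31665 CPM in clone L, the 2 clones with the least TYRO3, and at 92686 CPM in clone F and 90534 CPM in clone E. The cartilage genes that fell were PRG4 (-3.62, SE 0.65, adjusted p = 0.0021), HAPLN1 (-1.20, SE 0.33, adjusted p = 0.023) and COMP (-1.52, SE 0.49, adjusted p = 0.044), the last called in only 6 of the 17 fits that left out a clone. The other 9 had slopes between -1.37 and 0.32.

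**Figure D5:**
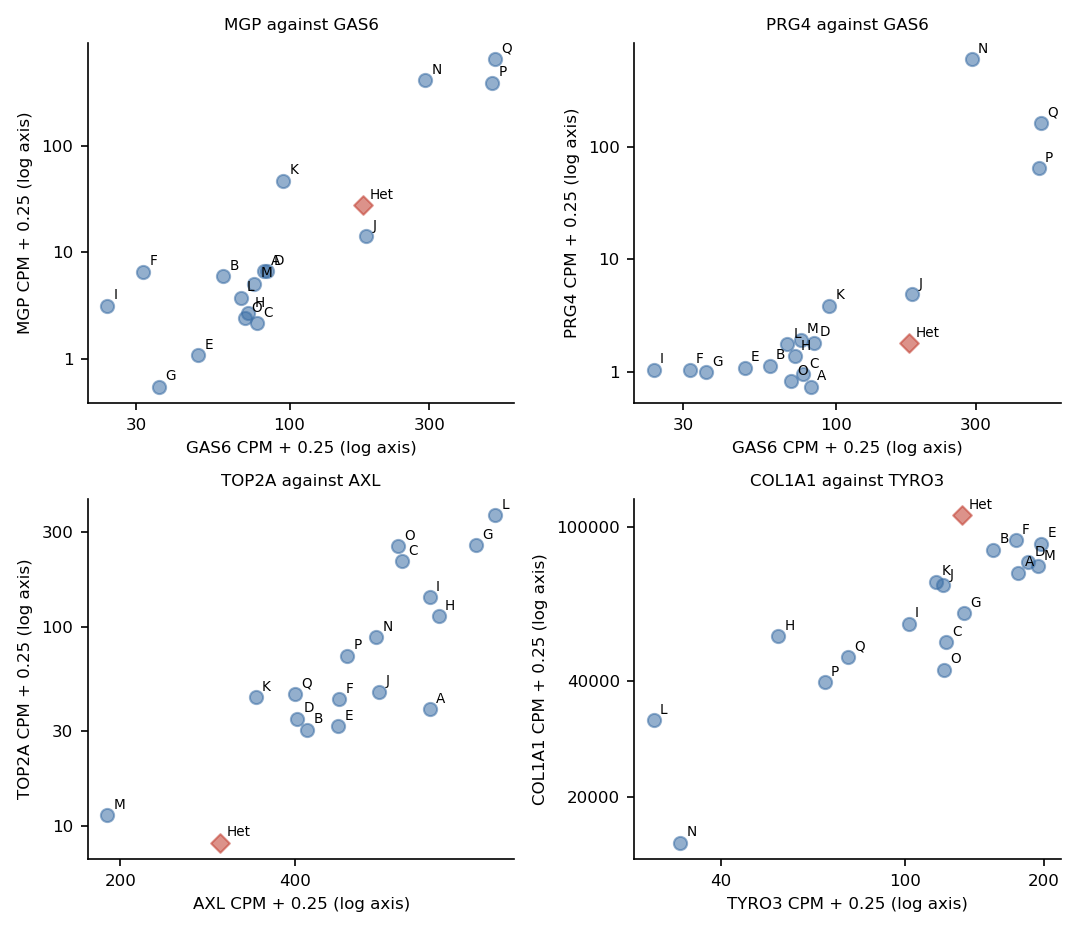
MGP and PRG4 against GAS6, TOP2A against AXL and COL1A1 against TYRO3, in CPM + 0.25 on log axes, 1 point per library with its letter; the red diamond is Het. Clones N, P and Q hold the highest MGP and PRG4, TOP2A runs from clone M to clone L along AXL, and COL1A1 is lowest in clones N and L.

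Of the phosphatidylserine list, EDIL3 (-0.99, SE 0.23, adjusted p = 0.0087), GULP1, an engulfment adaptor (-0.58, SE 0.18, adjusted p = 0.033), and SCARF1 (-0.57, SE 0.18, adjusted p = 0.038) fell as TYRO3 rose. So did MGP (-3.35, SE 0.93, adjusted p = 0.024) and, of 26 signalling partners, TENC1 (-0.39, SE 0.11, adjusted p = 0.023). Calls on TYRO3 took 14.4% of all genes. Without clone N 741 genes were called in all, and EDIL3 (-0.90), GULP1 (-0.47), SCARF1 (-0.44), MGP (-3.71), TENC1 (-0.43), HAPLN1 (-1.09) and COMP (-1.11) were not, with adjusted p between 0.050 and 0.369. Their slopes kept their sign there, and those of MGP and TENC1 were steeper than with it.

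The genes most like each member across the 17 clones, by Pearson r of log2(CPM + 0.25) among the genes that passed the filter, are given as a description. For GAS6 they were ZBTB4, a repressor that binds methylated DNA (r = 0.936), C1R, a protease of the classical complement pathway (0.934), GLT8D2 (0.929), TRIM46 (0.924) and APOD, a lipid-carrying apolipoprotein (0.922). C1R ranged from 0.298 to 139 CPM and APOD from 1.64 to 248 CPM. The genes that ran most against GAS6 were ATF6, a sensor of stress in the endoplasmic reticulum (r = -0.953), SPECC1 (-0.923), B3GALNT1 (-0.922), UBE2J1, an enzyme of endoplasmic reticulum-associated degradation (-0.910), and PAG1 (-0.903). ATF6 ranged only from 82.2 to 176 CPM. PROS1 as a correlate of GAS6 was 1619th of 11243 genes.

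Those nearest to PROS1 were THAP2 (r = 0.918), SESN1, a stress-induced p53 target (0.900), VWCE (0.896), SERPINE2, an inhibitor of thrombin and other proteases (0.889), and TADA2A (0.888). TYRO3 was at place 11212 of 11243 in likeness to PROS1. In likeness to TYRO3, PROS1 was at place 10437, and the median r of all genes with TYRO3 was itself -0.324. Nearest to AXL were TPM3, a tropomyosin (r = 0.886), BACH1 (0.884), FHL2 (0.883), SEMA3F (0.874) and BIN3 (0.868). FHL2, a LIM-domain cofactor of the actin cytoskeleton, ranged from 120 to 458 CPM.

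For TYRO3 the nearest were LOXL2, a lysyl oxidase that crosslinks collagen (r = 0.940), SPNS1 (0.929), AGPAT4 (0.911), SDC1, a heparan sulphate proteoglycan (0.900), and RFTN1 (0.898). LOXL2 was at 336 CPM in clone N, 1080 CPM at the median and 1890 CPM in clone E. For MERTK, whose counts were low, the highest values were TMEM54 (r = 0.807), MGAT4A (0.790), FAM63B (0.779), ITPR1 (0.779) and ITGA1 (0.773). All these coefficients share their libraries and depth with the member, and no test was made of them.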

How the data were processed

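Bovine MSC libraries (17 clones, 1 heterogeneous population) were sequenced from poly-adenylated RNA. The authors aligned the reads to the bosTau7 genome with STAR (2.3.0e per the labels) and counted them with HTSeq, and the deposited values are raw counts of reads per gene in each library, as whole numbers with no normalization. The 5 tally lines of each file that name no gene, among them 18.8% to 26.8% of reads outside genes, were left out. Whether counting used strand is not given in the sources used here. Groups came from the sample labels.

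Counts were scaled to CPM, and log2(CPM + 0.25) was used for spreads and correlations (100000 permutations). In the slopes, GAS6, AXL or TYRO3 entered as log2(CPM + 0.25) by library totals, while the fitted genes were scaled by TMM. The alternatives with library totals or DESeq2 size factors used the same scaling for both sides. Genes were tested in R 4.3.3 with edgeR 4.0.16 (TMM, filterByExpr, quasi-likelihood test, Benjamini-Hochberg adjustment over all genes tested, threshold 0.05), with limma 3.58.1 (limma-voom), DESeq2 1.42.0, other scalings, no filter and left-out clones as alternatives. The tests were run first on simulated counts with 200 changed genes. Other steps used Python 3.11.15 (scipy 1.17.1, numpy 2.4.6, matplotlib 3.10.9, pandas 2.3.3).

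Adjusted p-values of slopes are from edgeR unless stated. The members and the 16 gene and marker lists were chosen with earlier results of these data known. Genes named are the members, from each list up to 4 genes called or the 2 nearest to it, and the 5 genes most like each member. The result of 1 list is not reported here. The table of the whole series was not used. Symbols of all 5 members matched the RefSeq ARS-UCD2.0 gene table, from which no coordinate was taken.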

Additional observations from a re-analysis of the deposited data

How the results depend on the processing

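In Het, 0 of the 4 members other than GAS6 were called under any alternative, but their values moved: PROS1 (-0.38) was -0.016 by limma-voom and -0.060 without clone N, and TYRO3 (0.17) was 0.41 by limma-voom. GAS6 (0.51) was 1.095 by limma-voom and 0.79 without clone P or Q. The 149 genes called became 226 by limma-voom, 89 by DESeq2, and 141 to 160 with clones left out in turn. Calls on GAS6 numbered 822 to 1770 with each clone left out, 169 without clones P and Q and 0 without N, P and Q. The slope of PROS1 on GAS6 was 0.29 to 0.57 with a clone left out and was lost by limma-voom (0.47), without P and Q (0.67) and without N, P and Q (0.28). The cartilage calls were 4 to 7 with a clone left out, with 4 without B, E, G, I, P or Q, 3 without P and Q and 0 without N, P and Q. The slope of MERTK on GAS6 ran from -0.079 to 0.24.

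Calls on AXL were 353 with DESeq2 size factors, which also rescaled the AXL values. They were 1982 by DESeq2, which did not rescale them, 1898 with Het included and 290 to 1941 with a clone left out. The slope of PROS1 on AXL turned to 0.12 with library totals, 0.037 with Het and 0.053 without P and Q, and ran from -0.37 to 0.16. That of MERTK was 0.25 by limma-voom and ran from -1.09 to 0.69. Calls on TYRO3 were 2739 with library totals and 741 to 1761 with a clone left out. There the slope of PROS1 was -1.005 to -0.55, that of GAS6 was called by DESeq2 (-0.87) and ran from -1.17 to -0.63, and that of MERTK from -0.25 to 0.25.

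With each clone left out, r was 0.43 to 0.62 for GAS6 and PROS1, -0.57 to -0.31 for GAS6 and TYRO3, -0.50 to -0.30 for AXL and TYRO3, -0.11 to 0.22 for GAS6 and MERTK, -0.26 to 0.42 for AXL and MERTK, -0.27 to 0.027 for MERTK and TYRO3 and -0.084 to 0.10 for PROS1 and AXL. PROS1 and AXL had -0.13 with CPM by effective library size, and AXL and MERTK -0.012 with Het. Where fewer clones entered, the design itself was smaller; the cause of the other changes was not tested. The fits without P and Q, and without N, P and Q, were chosen after seeing the data. No paired analysis was possible because the labels give clone letters and no replicate numbers. Motifs in promoters were not run. Single libraries per clone limit every p-value, and 4 to 81 reads limit MERTK.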

Other observations

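Genes once grouped with GAS6 as growth-arrest-specific gave 2 rises with it among 6 tested, beside 15.2% of all genes called. They were GAS2 (slope 0.30, SE 0.09, adjusted p = 0.028 by edgeR) and GAS1 (0.34, SE 0.11, adjusted p = 0.041 by edgeR), and neither was called without clones P and Q. On AXL, 1 of 7 rose, beside 10.3% of all genes called. It was GAS2L3, a cytoskeletal linker made in dividing cells, at 1.60 (SE 0.33, adjusted p = 0.0095 by edgeR). Of 7 targets of YAP and TEAD, 1 was called on AXL, CTGF, which fell by 0.86 (SE 0.24, adjusted p = 0.032 by edgeR). CTGF was not called without clone L or without clone G.

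Stromal markers PDGFRA (0.47, SE 0.12), VCAM1 (1.19, SE 0.34) and CXCL12 (0.49, SE 0.16) rose with GAS6. These were 3 of 11 tested, beside 15.2% of all genes called, and none of them was called without P and Q. VCAM1 had 0 to 47 reads in the clones, with a median of 1. It did not pass the filter without N, P and Q, so its test rested on the clones with the most GAS6. Of 4 endothelial genes tested, TEK rose with GAS6 (0.55, SE 0.11). ERG rose with AXL (0.84, SE 0.24) and fell with TYRO3 (-0.49, SE 0.15). With each of the 17 clones left out in turn, ERG was called in 10 fits on AXL and 9 on TYRO3. On AXL it was not called with DESeq2 size factors. On TYRO3 it was not called without clone N (adjusted p = 0.057 by edgeR). The shares of all genes called were 15.2% on GAS6, 10.3% on AXL and 14.4% on TYRO3. Of 6 macrophage markers tested among the clones, 0 were called on GAS6 by edgeR, limma-voom or DESeq2, with 0 at an unadjusted p under 0.05 by edgeR. Of 4 platelet and megakaryocyte genes tested in Het, PPBP (log2 difference 6.76, SE 0.65) and PF4 (5.36, SE 0.69) were higher. In that comparison 1.25% of all genes were called. By DESeq2, PF4 was called and PPBP was not. PPBP had at most 1 read and PF4 at most 6 in any clone, and both passed the filter through Het.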
